A study of Rattus norvegicus with 30 samples.

Results

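The 8 genes described here were listed as outside fat metabolism and were measured in cultured rat hepatocytes given the plasticiser diisononyl phthalate (DINP). They are Spc24, Cacna2d3, Tpcn2, Nim1k, Dnajb3, Pkhd1l1, Ly6i and Dhrs7l1. They were picked by name for large rises under DINP in these same arrays, so their differences from the vehicle are given as a description and are not tested. All probe sets that the platform annotation assigns to 1 of the 8 genes were taken. Each gene had 1, which makes 8 of the 31042 probe sets, and all 8 were among the 18625 tested ones that represent 10604 genes.

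The cells were frozen primary hepatocytes of male Sprague Dawley rats, grown on collagen under Matrigel and dosed on day 3 of culture. The 6 groups of 5 arrays were 1% DMSO alone (the vehicle), 25 mM DINP and 100 mM DINP, each for 24 h and for 48 h, and the dosing solutions of every group held DMSO. The unit mM is that of the labels and could not be checked. The 5 wells of a group are called independent cultures there. Whether they came from 1 animal or several is not given in the sources used here, and the tests therefore speak of variation among wells. The series belongs to a set of compounds studied separately, and it asks what each dose does to transcripts at each time.

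DINP is a phthalate ester, a class whose members act as peroxisome proliferators in rodent liver: they activate the nuclear receptor PPARα, which pairs with RXR on direct repeats of a short half-site and raises genes of fatty acid oxidation. The 8 genes were listed as outside fat metabolism, and for Pkhd1l1, Ly6i and Dhrs7l1 only the family is given here. Spc24 is a subunit of the NDC80 complex, which ties kinetochores to spindle microtubules in mitosis. Cacna2d3 is an auxiliary subunit of voltage-gated calcium channels, and Tpcn2 is a cation channel of endosomes and lysosomes. Nim1k is a protein kinase related to AMPK, and Dnajb3 is a J-domain cochaperone of Hsp70. Pkhd1l1 is a large membrane protein related to fibrocystin, Ly6i belongs to the Ly6 family of small lipid-anchored surface proteins, and Dhrs7l1 is named as a relative of the short-chain dehydrogenase Dhrs7.

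Promoter sequences were taken from RefSeq (build GRCr8), which held 9 promoters for 7 of the 8 genes, 3 of them for Nim1k. Both strands of the 300 bases from 250 before to 50 after each start were searched. The half-site AGGTCA was found in 1 of the 9, against 16.2% of all 33465 promoters of that length. The direct repeat AGGTCANAGGTCA was found in 0 of the 9 (0.0538% of all), and the looser AGGNCANAGGNCA, which includes it, in 0 of the 9 (0.415% of all). CCAAT was found in 5 of the 9 (37.5% of all) and TATAAA in 1 (14.2% of all). A match says only that these letters stand in the window, and a window without one says nothing of the receptor. The 250 bases before the start are shown for Spc24, which has 2 CCAAT matches, for Nim1k, whose first promoter holds the 1 half-site, for Tpcn2, with 2 CCAAT matches, and for Cacna2d3, which has no match and whose distance from the vehicle, like that of Spc24, was larger at 48 than at 24 h. Capitals mark AGGTCA or CCAAT on either strand, and all 4 are read on the minus strand.
Spc24, chr8:28581300-28581549: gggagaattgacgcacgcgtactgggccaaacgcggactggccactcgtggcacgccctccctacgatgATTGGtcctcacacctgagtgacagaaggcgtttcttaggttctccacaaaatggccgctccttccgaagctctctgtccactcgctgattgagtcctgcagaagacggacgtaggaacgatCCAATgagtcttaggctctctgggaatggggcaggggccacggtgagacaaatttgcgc
Nim1k, chr2:53451249-53451498: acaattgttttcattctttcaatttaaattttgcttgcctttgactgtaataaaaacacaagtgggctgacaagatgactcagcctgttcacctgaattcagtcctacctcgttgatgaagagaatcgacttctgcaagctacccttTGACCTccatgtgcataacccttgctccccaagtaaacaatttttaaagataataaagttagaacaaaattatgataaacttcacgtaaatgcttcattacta
Tpcn2, chr1:209875458-209875707: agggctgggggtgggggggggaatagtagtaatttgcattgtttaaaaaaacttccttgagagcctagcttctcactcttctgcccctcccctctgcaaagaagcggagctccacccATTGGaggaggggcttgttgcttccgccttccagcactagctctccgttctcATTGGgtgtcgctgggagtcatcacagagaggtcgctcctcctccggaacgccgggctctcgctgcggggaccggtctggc
Cacna2d3, chr16:4918900-4919149: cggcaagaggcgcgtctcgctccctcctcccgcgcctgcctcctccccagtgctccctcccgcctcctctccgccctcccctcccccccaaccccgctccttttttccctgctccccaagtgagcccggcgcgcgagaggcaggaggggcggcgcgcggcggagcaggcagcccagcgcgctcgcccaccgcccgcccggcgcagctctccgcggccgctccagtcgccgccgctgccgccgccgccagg
In these sequences the half-site of Nim1k begins at position -103 from the start site. The CCAAT matches of Spc24 start at -181 and -59, and those of Tpcn2 at -133 and -81. The promoters differ in base composition: G and C make up 58.3% of the 300 bases for Spc24, 79.3% for Cacna2d3, 60.3% for Tpcn2 and 33.7% for the first promoter of Nim1k, beside a median of 51.7% over all promoters.

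Signals are given in MAS5 units, and differences are of log2(signal + 16), with the standard error (SE) of the fit by limma across all probe sets. The array files hold no detection calls, so the level in the vehicle was set against 2 references. One is the dimmest mean tested, 7.956 on the log2 scale or a signal of 232.3. The other is a list of 30 genes of tissues foreign to liver, of which 28 were on the array. Their means over the vehicle arrays ran from 5.27 to 10.75, with a median of 7.53 and a 95th percentile of 9.84. By the mean over all 30 arrays, 17 of the 28 lay below 7.956. Where the vehicle mean lies below 7.956, signal above background is not shown there. The fold is then given as "at least", against the higher of that floor and the array's own value. This bound allows for the floor only and not for the SE, so it is no confidence limit. For Tpcn2 at 100 mM and 48 h, for example, it was 0.52 on the log2 scale, where the difference had an SE of 0.34.

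Of the 8 genes, 5 reached the floor on the 10 vehicle arrays taken alone and 3 (Nim1k, Dnajb3 and Tpcn2) did not; those 3 were tested only because their DINP arrays were brighter. In the vehicle, Spc24, Ly6i and Dhrs7l1 lay above the floor on every array, each brighter than between 75.3% and 84.5% of all probe sets at both times. Cacna2d3, with vehicle means of 8.58 at 24 h and 8.21 at 48 h, lay above the floor but within the range of the foreign-tissue genes. Pkhd1l1 lay at 7.81 at 24 h, below the floor, and at 8.33 at 48 h. Under DINP the means of Nim1k, Dnajb3, Tpcn2 and Pkhd1l1, at most 9.72, still lay below the 95th percentile of the foreign-tissue genes.

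At 25 mM and 24 h, all 5 DINP arrays lay above all 5 vehicle arrays for 6 of the 8 genes, and 4.76% of all tested probe sets did the same. The number was 6 of 8 at 100 mM and 24 h (4.94% of tested probe sets), 6 of 8 at 25 mM and 48 h (4.81%) and 7 of 8 at 100 mM and 48 h (4.81%). A difference of at least 1 on the log2 scale was reached by 6, 5, 7 and 6 genes in the same order, beside 0.585%, 0.499%, 0.795% and 0.526% of tested probe sets. The median difference of the 8 was 1.45, 1.61, 1.34 and 1.37, and that of all tested probe sets -0.05, -0.05, -0.03 and -0.07. Since the genes were chosen on these contrasts, nothing is read from those counts. The name "strongly raised" did not hold for every gene: Dhrs7l1 lay below the vehicle at 24 h, and Ly6i reached only 1.37-fold and 1.46-fold at that time.

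**Figure D1:**
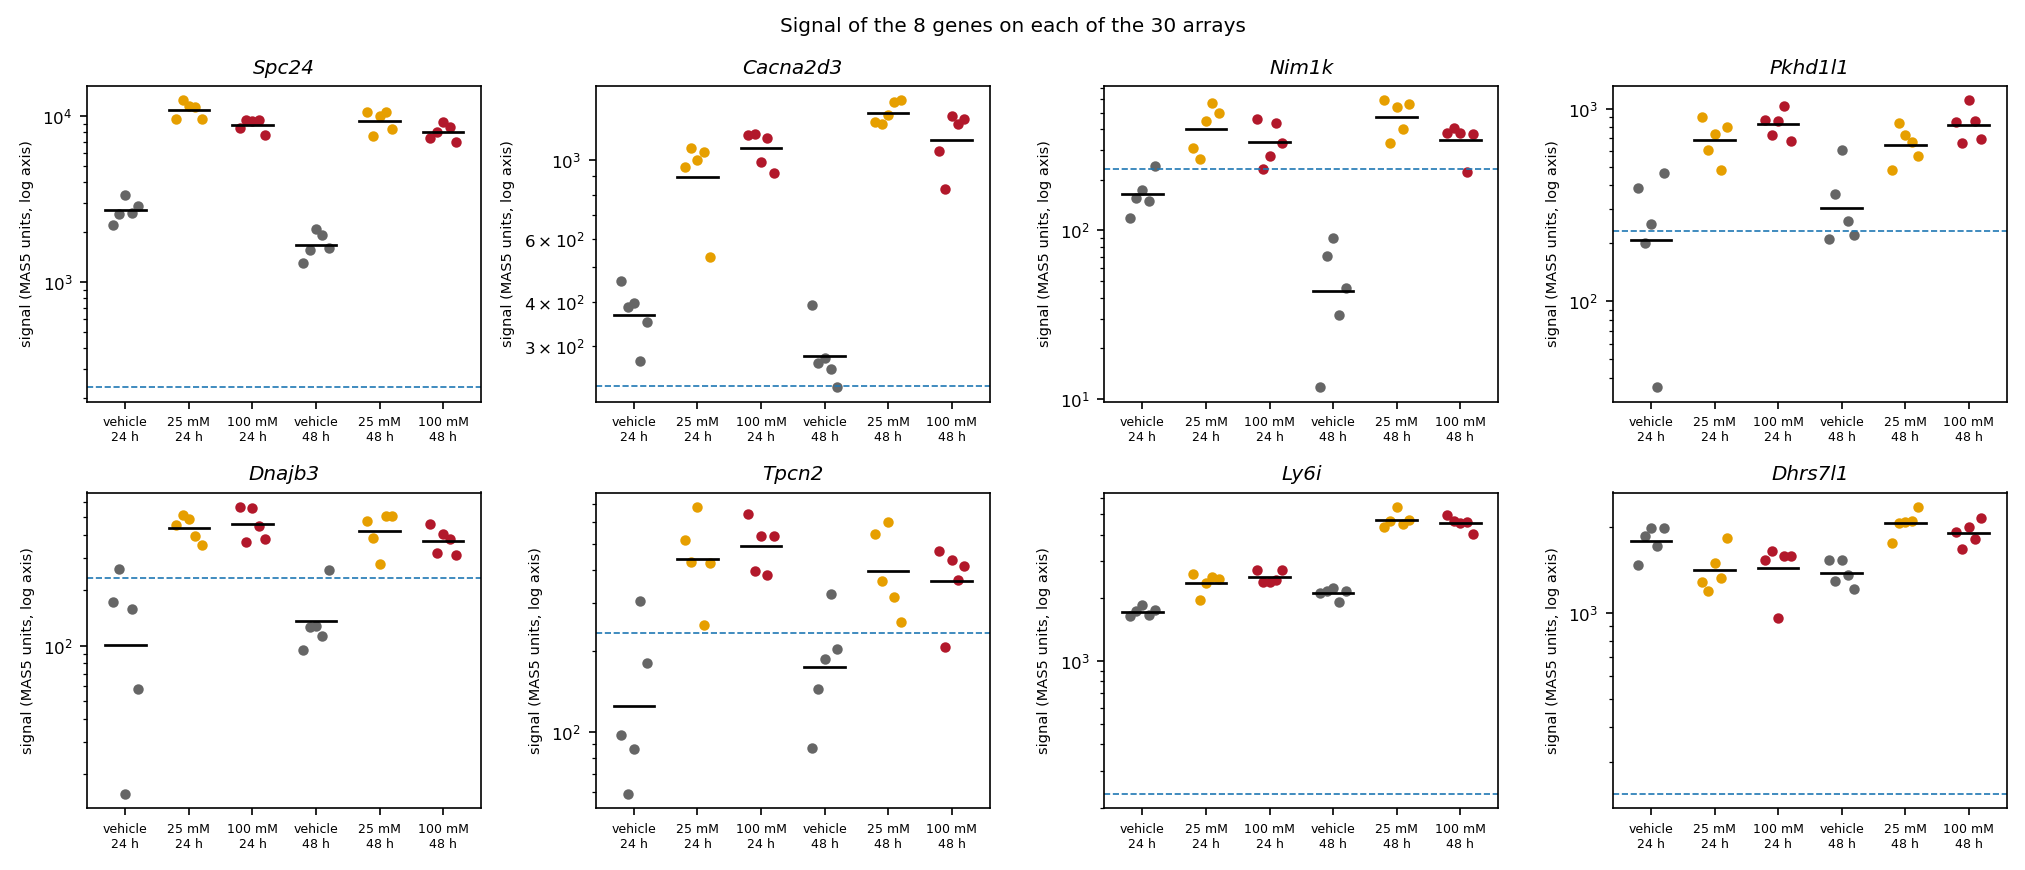
Signal of each of the 8 genes (MAS5 units, log axis, a separate scale per panel) on every array of the 6 groups; points are arrays, black bars the means of log2(signal + 16) turned back into signal, and the dashed line the dimmest tested mean, 232.3. Most vehicle arrays of Nim1k, Dnajb3 and Tpcn2 lie under the line, all arrays of Spc24, Ly6i and Dhrs7l1 lie above it, and Dhrs7l1 lies lower under DINP at 24 h and higher at 48 h.

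Spc24 was higher in every DINP array than in any vehicle array. At 24 h its vehicle arrays read 2222, 2586, 3354, 2610.4 and 2891, and those at 25 mM read 9671, 12444, 11568, 11305 and 9632. At 100 mM they read 8516, 9472, 9316, 9456 and 7704. The lowest DINP array lay well above the highest vehicle array, and the difference was 2.00 ± 0.11 (4.00-fold) at 25 mM and 1.71 ± 0.11 (3.26-fold) at 100 mM. After 48 h the vehicle arrays read 1305, 1554, 2078, 1930.2 and 1605, those at 25 mM 10656, 7596, 10069, 10647 and 8405, and those at 100 mM 7406, 7988, 9164, 8551 and 7025. The vehicle was dimmer than at 24 h and the DINP arrays stayed bright, which gave 2.48 ± 0.11 (5.57-fold) and 2.25 ± 0.11 (4.74-fold).

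Spc24 was also the one gene of the 8 whose doses were apart. At 24 h every array at 100 mM lay below every array at 25 mM, a difference of -0.29 ± 0.11, where 0.698% of tested probe sets had doses that did not overlap. At 48 h the doses overlapped, at -0.23 ± 0.11, where 1.23% of tested probe sets did not. The other 7 genes overlapped between the doses at both times, with differences from -0.44 (Nim1k, 48 h) to 0.34 (Pkhd1l1, 48 h). For the dimmer genes these differences have wide errors, up to 0.36, so similar levels at the 2 doses are not shown.

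Of 27 other listed genes of the kinetochore and of mitosis, 24 were on the array and 12 were tested. Of these 12, 0 were called higher at either dose or time. With so few genes that count lies near the shares of all genes, and nothing is read from it. Those shares were 7.87% at 25 mM and 24 h, 7.54% at 100 mM and 24 h, 9.78% at 25 mM and 48 h and 8.69% at 100 mM and 48 h. At an unadjusted limma p under 0.05, 1, 1, 0 and 0 were higher in that order. The 2 NDC80 partners with a tested probe set did not pass the test: Nuf2 differed by 0.08 ± 0.17 and 0.19 ± 0.17 (limma adjusted p = 0.83 and 0.503), and Spc25 by 0.03 ± 0.23 and 0.18 ± 0.23 (adjusted p = 0.962 and 0.667), at 25 mM and 24 and 48 h. In the vehicle at 24 and 48 h, Nuf2 lay at 8.96 and 9.03 and Spc25 at 8.22 and 8.13. These means are above the floor but within the range of the foreign-tissue genes. At 25 mM and 48 h, 2 members of the list fell, where 12.1% of all genes did. Mis12, the subunit that gives the kinetochore's MIS12 complex its name, fell by 0.38 ± 0.11 (adjusted p = 0.0133, and 0.0541 without vehicle replicate 4 of 48 h). Zwint, a kinetochore scaffold partner, fell by 0.19 ± 0.05 (adjusted p = 0.00793, and 0.13 with each array centred on its median). The median of the list lay between -0.08 and 0.19 over the 4 comparisons, and that of all genes between -0.06 and -0.03.

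On the chromosome, the tested neighbours of Spc24 were 5, and their order in GRCr8 is Timm29, Smarca4, Spc24, Kank2, Dock6 and Angptl8. Of these neighbours, 3 and 4 were called higher at 25 and 100 mM at 24 h, and 2 and 3 at 48 h. The shares of all genes called higher were 7.87%, 7.54%, 9.78% and 8.69% in that order. Whether the neighbours share control with Spc24 was not tested. Angptl8, a secreted regulator of lipoprotein lipase made in liver and fat, rose by 0.93 ± 0.09, 0.85 ± 0.09, 0.73 ± 0.09 and 0.84 ± 0.09 at 25 and 100 mM for 24 h and at 25 and 100 mM for 48 h (adjusted p between 2.99e-09 and 3.17e-07). Kank2, an adaptor at focal adhesions, rose by 0.46 ± 0.09, 0.44 ± 0.09, 0.52 ± 0.09 and 0.45 ± 0.09 in the same order (adjusted p between 7.63e-05 and 0.00116). Timm29, of the mitochondrial inner membrane import machinery, was called at 24 h, when it rose by 0.32 ± 0.07 and 0.38 ± 0.07 (adjusted p = 0.00166 and 0.000202). Its differences at 48 h were 0.16 and 0.06, and no interaction with time was called for any named neighbour or relative. Dock6, a guanine nucleotide exchange factor, rose at 100 mM, by 0.29 ± 0.09 at 24 h (adjusted p = 0.0326) and 0.35 ± 0.09 at 48 h (adjusted p = 0.00686). The 24 h call ended when any 1 of 6 of the 10 arrays was left out (adjusted p from 0.0512 to 0.111). Smarca4, the nearest tested gene on the other side, was not called in any of the 4 comparisons, with differences from -0.10 to 0.04.

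**Figure D2:**
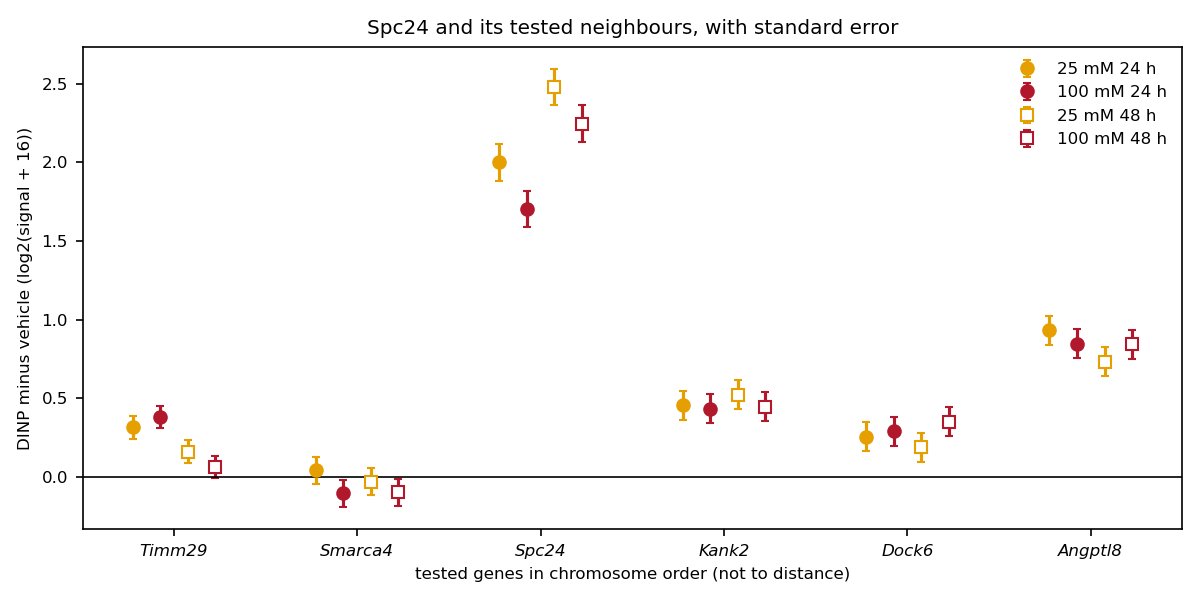
Difference between DINP and vehicle (log2(signal + 16), with SE, 5 arrays against 5) of Spc24 and its 5 tested neighbours, placed by gene order and not by distance. Spc24 lies between 1.71 and 2.48, Angptl8 and Kank2 lie above 0 at each dose and time, and Smarca4 lies near 0.

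Of the 2 channel genes, Cacna2d3 lay higher under DINP on every array. At 24 h its vehicle arrays read 457, 386, 397, 272 and 352, those at 25 mM 956, 1080.0, 1001, 1056 and 535, and those at 100 mM 1173, 1184, 991, 1155 and 917. Replicate 5 at 25 mM was well under the other 4, yet above the vehicle. The differences were 1.25 ± 0.17 (2.38-fold) and 1.51 ± 0.17 (2.85-fold). By 48 h the vehicle arrays read 391, 269, 278, 259 and 230.0, those at 25 mM 1278, 1264, 1339, 1459 and 1471, and those at 100 mM 1058, 831, 1329, 1265 and 1308. The groups were further apart than at 24 h, at 2.21 ± 0.17 (4.63-fold) and 1.96 ± 0.17 (3.90-fold).

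Tpcn2 lay mostly below the floor in the vehicle and above it on most DINP arrays, with overlap in 3 of the 4 comparisons. At 24 h its vehicle arrays read 97.8, 59.0, 86.6, 307 and 181, those at 25 mM 518, 427, 685, 250.2 and 425, and those at 100 mM 647, 395, 534, 383 and 532. Replicate 4 of the vehicle was the brightest and replicate 4 at 25 mM the dimmest, so 4 of 5 arrays lay above the vehicle at 25 mM and 5 of 5 at 100 mM. The differences were 1.69 ± 0.34 (at least 1.74-fold) and 1.84 ± 0.34 (at least 1.93-fold). The vehicle arrays of 48 h read 87.6, 145, 187, 326 and 204, those at 25 mM 542, 363, 603, 317 and 256, and those at 100 mM 468, 208, 436, 365 and 412. At that time 3 of 5 and 4 of 5 arrays lay above the vehicle, and the differences were 1.11 ± 0.34 (at least 1.56-fold) and 0.99 ± 0.34 (at least 1.44-fold).

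The relatives of the 2 channels are read against all genes, of which 15.7% were called at 25 mM and 24 h, 14.6% at 100 mM and 24 h, 21.9% at 25 mM and 48 h and 17.9% at 100 mM and 48 h. Of 25 other calcium channel subunits, 12 were tested, 0 were called higher in any comparison, and 1 was called lower, at 25 mM and 48 h. Of all genes, 7.87%, 7.54%, 9.78% and 8.69% were called higher in the order above, and 12.1% lower at 25 mM and 48 h. At an unadjusted limma p under 0.05, 0 of the 12 subunits were higher in each of the 4. The vehicle means of these genes ran from 8.03 (Cacnb2, 48 h) to 10.28 (Cacng2, 24 h), within the range of the foreign-tissue genes. Their standard errors reached 0.43 (Cacna1b), so unchanged levels are not shown. The 1 called lower was the T-type channel Cacna1h, which fell by 0.65 ± 0.22 (adjusted p = 0.0414); the call ended when any 1 of 6 of the 10 arrays was left out (0.084 to 0.11). Of 15 other endolysosomal channels and membrane proteins, 10 were tested, and 0 were called higher at 24 h at either dose (1 at each dose at an unadjusted limma p under 0.05). At 48 h, 3 rose at 25 mM and 2 at 100 mM, beside 9.78% and 8.69% of all genes. At 25 mM, 1 fell at each time, beside 7.84% and 12.1% of all genes: P2rx4, an ATP-gated cation channel named after its values were seen, by 0.18 ± 0.06 at 24 h (adjusted p = 0.0415) and 0.17 ± 0.06 at 48 h (adjusted p = 0.0462). These calls ended without any 1 of 6 (0.0703 to 0.126) and of 8 (0.0534 to 0.188) of the 10 arrays, and with each array centred on its median (-0.11, adjusted p = 0.492, and -0.17, adjusted p = 0.176). Lamp2, a major lysosomal membrane glycoprotein, rose by 0.25 ± 0.05 and 0.29 ± 0.05 (adjusted p = 0.000406 and 6.49e-05). Ctsd, a lysosomal aspartic protease, rose by 0.27 ± 0.08 and 0.29 ± 0.08 (adjusted p = 0.0208 and 0.0166), calls that ended without any 1 of 4 and 3 of the 10 arrays and with quantile normalization (0.0957 and 0.122). Tpcn1, the paralog of Tpcn2, rose by 0.38 ± 0.13 at 25 mM (adjusted p = 0.0335), a call that ended without any 1 of 5 of the 10 arrays (0.066 to 0.125), and differed by -0.01 ± 0.13 at 100 mM.

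Near Cacna2d3, Ccdc66, a gene of microtubules and cilia, fell by 0.36 ± 0.10, 0.40 ± 0.10, 0.65 ± 0.10 and 0.49 ± 0.10 at 25 and 100 mM for 24 h and at 25 and 100 mM for 48 h (adjusted p between 1.41e-05 and 0.0157; 0.0622 for the first with each array centred on its median). Actr8, an actin-related subunit of the INO80 complex, fell by 0.24 ± 0.07, 0.23 ± 0.07 and 0.26 ± 0.07 in the last 3 of these (adjusted p = 0.0288, 0.0327 and 0.0151), and each of these calls was lost with quantile normalization (0.0994, 0.17 and 0.0837). Near Tpcn2, the cyclin D1 gene Ccnd1 rose by 0.70 ± 0.13 at both doses at 24 h (adjusted p = 0.000257 and 0.00028) and by 0.44 ± 0.13 at 25 mM and 48 h (adjusted p = 0.0174, and 0.0521 without vehicle replicate 2 of 48 h). The helicase gene Ighmbp2 rose by 0.71 ± 0.23 at 100 mM and 48 h (adjusted p = 0.0309), a call that ended without any 1 of 5 of the 10 arrays (0.0535 to 0.116). Each of the 2 channel genes had 3 tested neighbours. Those of Cacna2d3 called lower were 1 and 2 at 25 and 100 mM at 24 h, and 2 and 2 at 48 h. Of those of Tpcn2, 1 was called higher in each comparison. Of all genes, 7.84%, 7.02%, 12.1% and 9.2% were called lower in the same order, and 7.87%, 7.54%, 9.78% and 8.69% higher.

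**Figure D3:**
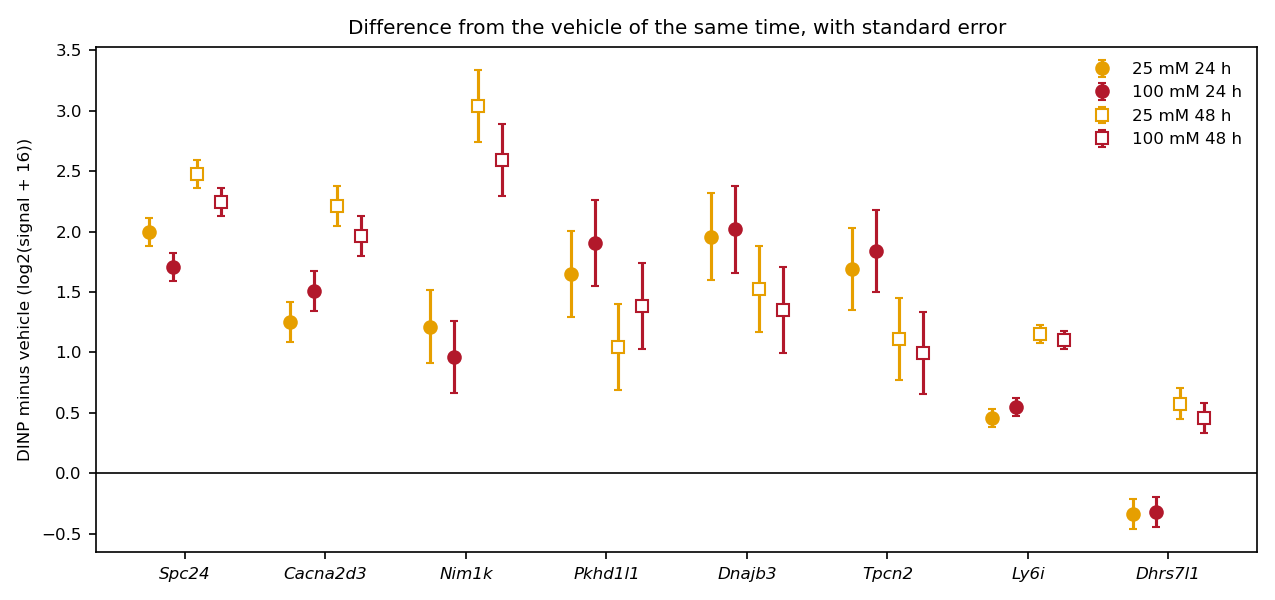
Difference between DINP and the vehicle of the same time (log2(signal + 16), with SE, 5 arrays against 5) for the 8 genes, filled at 24 h and open at 48 h. Spc24, Cacna2d3, Ly6i and Dhrs7l1 lie higher at 48 h than at 24 h, and of the 8 genes only Dhrs7l1 lies below 0, at 24 h; the fitted values of Nim1k, Dnajb3, Tpcn2 and, at 24 h, Pkhd1l1 rest on vehicle means under the floor.

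Nim1k, the kinase, lay below the floor on 4 of 5 vehicle arrays at 24 h and on 5 of 5 at 48 h. At 24 h its vehicle arrays read 119, 155, 175, 150.3 and 242, those at 25 mM 309, 266, 447, 569 and 494, and those at 100 mM 461, 230.5, 275, 434 and 328. The doses lay above the vehicle except for replicate 2 at 100 mM, which was just under the brightest vehicle array. The differences were 1.21 ± 0.30 (at least 1.67-fold) and 0.96 ± 0.30 (at least 1.40-fold). At 48 h the vehicle arrays read 11.7, 71.0, 89.7, 31.7 and 45.7, those at 25 mM 591, 329, 538, 402 and 563, and those at 100 mM 377, 403, 379, 221 and 374. The lowest DINP array was above every vehicle array, with replicate 4 at 100 mM under the other 4. The fitted differences were 3.04 ± 0.30 and 2.59 ± 0.30, but they rest on vehicle signals under the floor and on the constant added: the first was 3.51 with a constant of 1 and 2.29 with 64, and the second 3.04 and 1.89. Against the floor they are at least 1.97-fold and at least 1.45-fold.

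Among 17 genes of AMPK and its related kinases other than Nim1k, 12 were tested. Of these, 3 rose and 3 fell at 25 mM and 24 h, 1 and 3 at 100 mM and 24 h, 3 and 3 at 25 mM and 48 h, and 2 and 4 at 100 mM and 48 h. The shares of all genes that rose and fell were 7.87% and 7.84%, 7.54% and 7.02%, 9.78% and 12.1%, and 8.69% and 9.2%. The 3 that rose, and Mark3, which fell, are named after their values were seen. The salt-inducible kinase Sik3 rose by 0.40 ± 0.09, 0.28 ± 0.09, 0.45 ± 0.09 and 0.52 ± 0.09 in that order (adjusted p = 0.00212, 0.0359, 0.000392 and 8.31e-05), the second call ending without any 1 of 7 of the 10 arrays (0.0549 to 0.133). Its paralog Sik2 rose by 0.39 ± 0.10 and 0.47 ± 0.10 at 25 mM at 24 and 48 h and by 0.39 ± 0.10 at 100 mM and 48 h (adjusted p = 0.00512, 0.000591 and 0.00485). Nuak2, another AMPK-related kinase, rose at 25 mM by 0.51 ± 0.17 at 24 h and 0.48 ± 0.17 at 48 h (adjusted p = 0.0428 and 0.0487), calls that ended without any 1 of 6 (0.0505 to 0.152) and of 9 (0.0519 to 0.135) of the 10 arrays. Cab39, the scaffold MO25 that activates LKB1, fell by 0.69 ± 0.07, 0.64 ± 0.07, 0.71 ± 0.07 and 0.71 ± 0.07 in that order (adjusted p between 1.37e-09 and 1.86e-08). Prkaa2, a catalytic subunit of AMPK, fell by 0.69 ± 0.14, 0.52 ± 0.14, 0.52 ± 0.14 and 0.42 ± 0.14 (adjusted p = 0.000496, 0.00906, 0.00662 and 0.035); the last of these ended without any 1 of 6 of the 10 arrays (0.0565 to 0.127). Mark3, a microtubule affinity-regulating kinase, fell by 0.45 ± 0.07, 0.40 ± 0.07, 0.40 ± 0.07 and 0.49 ± 0.07 (adjusted p between 4.67e-06 and 0.000132). Its paralog Mark4 was called lower at 100 mM and 48 h at -1.13 ± 0.35 (adjusted p = 0.0266), but the DINP mean of 7.45 lies under the floor, so the size is not measured. That call ended without any 1 of 4 of the 10 arrays (0.0574 to 0.126), and without DINP replicate 1 the difference was -0.70. The 1 tested neighbour of Nim1k, Zfp131, was not called, with differences from -0.28 to -0.16.

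Dnajb3, the cochaperone, had vehicle arrays scattered around and under the floor. At 24 h they read 172, 261, 15.6, 158 and 58.1, against 453, 515, 488, 393 and 351 at 25 mM and 568, 365, 556, 446 and 379 at 100 mM. The groups did not overlap, and replicates 3 and 5 of the vehicle were far under the other 3. The differences were 1.96 ± 0.36 (at least 1.78-fold) and 2.02 ± 0.36 (at least 1.86-fold); with a constant of 64 they were 1.51 and 1.57. The 48 h vehicle arrays read 94.3, 127, 129, 112 and 259, those at 25 mM 475, 384, 278, 505 and 507, and those at 100 mM 459, 318, 405, 379 and 311. The groups were again apart, with vehicle replicate 5 closest to the DINP arrays. The differences were 1.52 ± 0.36 (at least 1.72-fold) and 1.35 ± 0.36 (at least 1.53-fold).

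Of 16 other DnaJ cochaperones of classes A and B, 13 were tested: 1 rose and 1 fell at 25 mM and 24 h, 1 rose and 2 fell at 100 mM and 24 h, and 0 rose and 2 fell at each dose at 48 h, beside 15.7%, 14.6%, 21.9% and 17.9% of all genes called in either direction. At an unadjusted limma p under 0.05, 2 were higher at 25 mM and 0 at 100 mM at 48 h. Dnajb4 fell by 0.62 ± 0.10, 0.48 ± 0.10, 0.97 ± 0.10 and 0.77 ± 0.10 in that order (adjusted p between 3.64e-09 and 0.000728). Dnajb9, a cochaperone of the endoplasmic reticulum, fell by 0.21 ± 0.06, 0.22 ± 0.06 and 0.17 ± 0.06 in the last 3 comparisons (adjusted p = 0.0142, 0.00685 and 0.0483), and none of these calls held with each array centred on its median (0.36, 0.0545 and 0.7). The heat-inducible Dnajb1 rose by 0.31 ± 0.10 and 0.32 ± 0.10 at 24 h (adjusted p = 0.0421 and 0.0397), calls that ended without any 1 of 6 and 7 of the 10 arrays (0.0507 to 0.209). Without vehicle replicate 4 of 24 h the differences were 0.19 and 0.20. Dnajb3 lies among Ugt1a genes, and 0 of its 6 neighbours had a tested probe set.

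Pkhd1l1, the fibrocystin relative, had widely scattered vehicle arrays. At 24 h they read 385, 200.4, 252, 35.7 and 462, against 899.6, 610.2, 734, 483 and 800.4 at 25 mM and 873, 729, 867, 1035 and 679.9 at 100 mM. No DINP array was as low as the highest vehicle array, and vehicle replicate 4 was far under the other 4. The differences were 1.65 ± 0.36 (at least 2.23-fold) and 1.91 ± 0.36 (at least 2.67-fold), and leaving out 1 array gave 1.12 to 1.92 and 1.38 to 2.18. At 48 h the vehicle arrays read 210.0, 362, 606, 259 and 219.8, those at 25 mM 480.2, 841, 731, 671 and 569, and those at 100 mM 856, 660.0, 1104, 865 and 699. Vehicle replicate 3 reached into the range of 25 mM, where 3 of 5 arrays lay above the vehicle, and all 5 did at 100 mM. The differences were 1.04 ± 0.36 (2.06-fold) and 1.38 ± 0.36 (2.61-fold). Of 9 other fibrocystin and polycystin genes, 2 were tested and limma called 0 in any comparison (1 lower at 100 mM and 24 h and 1 higher at 100 mM and 48 h at an unadjusted p under 0.05). Of all genes, 15.7% and 14.6% were called at 25 and 100 mM at 24 h, and 21.9% and 17.9% at 48 h. Of 4 tested neighbours, 1 was called: Sybu, a syntaxin-binding gene, fell by 0.54 ± 0.18 at 100 mM and 48 h (adjusted p = 0.0392), a call that ended without any 1 of 7 of the 10 arrays (0.0568 to 0.147).

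Ly6i was well measured in the vehicle and its arrays lay close together. At 24 h the vehicle arrays read 1639, 1735, 1841, 1649 and 1744, those at 25 mM 2601, 1955, 2347, 2524 and 2447, and those at 100 mM 2719, 2372, 2378, 2438 and 2703. Every DINP array was above every vehicle array, by a small margin, at 0.45 ± 0.08 and 0.55 ± 0.08. After 48 h the vehicle arrays read 2114, 2143, 2237, 1916 and 2165, those at 25 mM 4349.8, 4663, 5426, 4508 and 4694, and those at 100 mM 4957, 4667, 4559, 4581 and 4045. The groups were further apart than at 24 h, at 1.15 ± 0.08 (2.22-fold) and 1.10 ± 0.08 (2.15-fold). Of 28 other genes with Ly6 or uPAR domains, 12 were tested: limma called 0 at 24 h (0 also at an unadjusted p under 0.05), and 2 rose and 0 fell at each dose at 48 h. Of all genes, 15.7% and 14.6% were called at 25 and 100 mM at 24 h. At 48 h, 9.78% and 8.69% rose and 12.1% and 9.2% fell. Psca, a prostate stem cell antigen of that family, rose by 0.98 ± 0.17 and 0.79 ± 0.17 (adjusted p = 5.08e-05 and 0.000952), and Lynx1, which binds nicotinic receptors, by 0.43 ± 0.09 and 0.42 ± 0.09 (adjusted p = 0.000889 and 0.00124). The tested neighbours Ly6e and Ly6c were not called, with differences from -0.22 to 0.37. Probes of such close relatives can bind each other's transcripts, so the identity of Ly6i is less certain.

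Dhrs7l1 lay on opposite sides of the vehicle at the 2 times. At 24 h the vehicle arrays read 1473, 1856, 1980.1, 1721 and 1979.7, those at 25 mM 1289, 1195, 1491, 1324 and 1837, and those at 100 mM 1532, 1642, 962, 1578 and 1582. The DINP arrays tended lower but overlapped the vehicle, at -0.34 ± 0.12 and -0.32 ± 0.12, with replicate 3 at 100 mM far under the other 4. Without that array the difference at 100 mM was -0.18. The vehicle arrays of 48 h read 1528, 1291, 1538, 1361 and 1215, those at 25 mM 1763, 2062, 2089, 2107 and 2354, and those at 100 mM 1917, 1671, 2007, 1813 and 2147. All DINP arrays then lay above all vehicle arrays, at 0.58 ± 0.12 (1.49-fold) and 0.46 ± 0.12 (1.37-fold).

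Of 34 other short-chain dehydrogenases of the Dhrs, Rdh and Hsd families, 28 were tested: 9 rose and 0 fell at 25 mM and 24 h, 10 and 0 at 100 mM and 24 h, 13 and 1 at 25 mM and 48 h, and 11 and 1 at 100 mM and 48 h. Of all genes 7.87% rose and 7.84% fell in the first of these, 7.54% and 7.02% in the second, 9.78% and 12.1% in the third, and 8.69% and 9.2% in the last. At an unadjusted limma p under 0.05, 2 and 1 were lower at 24 h. The 1 that fell was Dhrs1, named after its values were seen, by 0.22 ± 0.07 at 25 mM (adjusted p = 0.0208, and 0.0831 and 0.061 without DINP replicate 1 and vehicle replicate 3) and 0.30 ± 0.07 at 100 mM (adjusted p = 0.00211, and 0.101 at -0.19 with each array centred on its median). The median difference of the list was 0.16, 0.11, 0.28 and 0.16, beside -0.03, -0.03, -0.03 and -0.06 over all genes. The largest was that of Hsd17b4, a bifunctional enzyme of peroxisomal β-oxidation and so a gene of fat metabolism, which rose by 0.94 ± 0.05, 0.83 ± 0.05, 0.88 ± 0.05 and 0.89 ± 0.05 (adjusted p between 1.04e-15 and 3.18e-14). Hsd17b6, which acts on steroids and retinoids, rose by 0.38 ± 0.06, 0.28 ± 0.06, 0.65 ± 0.06 and 0.57 ± 0.06 (adjusted p between 1.02e-10 and 0.000592). Dhrs7, which is both a relative and the next gene along the chromosome, rose by 0.62 ± 0.06, 0.50 ± 0.06, 0.56 ± 0.06 and 0.63 ± 0.06 (adjusted p between 2.78e-09 and 3.36e-07), so at 24 h it was called higher where the probe set of Dhrs7l1 read lower than the vehicle. Probes of such close relatives can bind each other's transcripts, so the identity of Dhrs7l1 is less certain too. The phosphatase Ppm1a, also near it, rose at 24 h by 0.25 ± 0.07 and 0.28 ± 0.07 (adjusted p = 0.0144 and 0.0063). The first of these was lost without vehicle replicate 2 or 4 of 24 h (0.0562 and 0.0636). Of the 3 tested neighbours of Dhrs7l1, 2 rose at each dose at 24 h and 1 at each dose at 48 h. The shares of all genes are those given above.

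**Figure D4:**
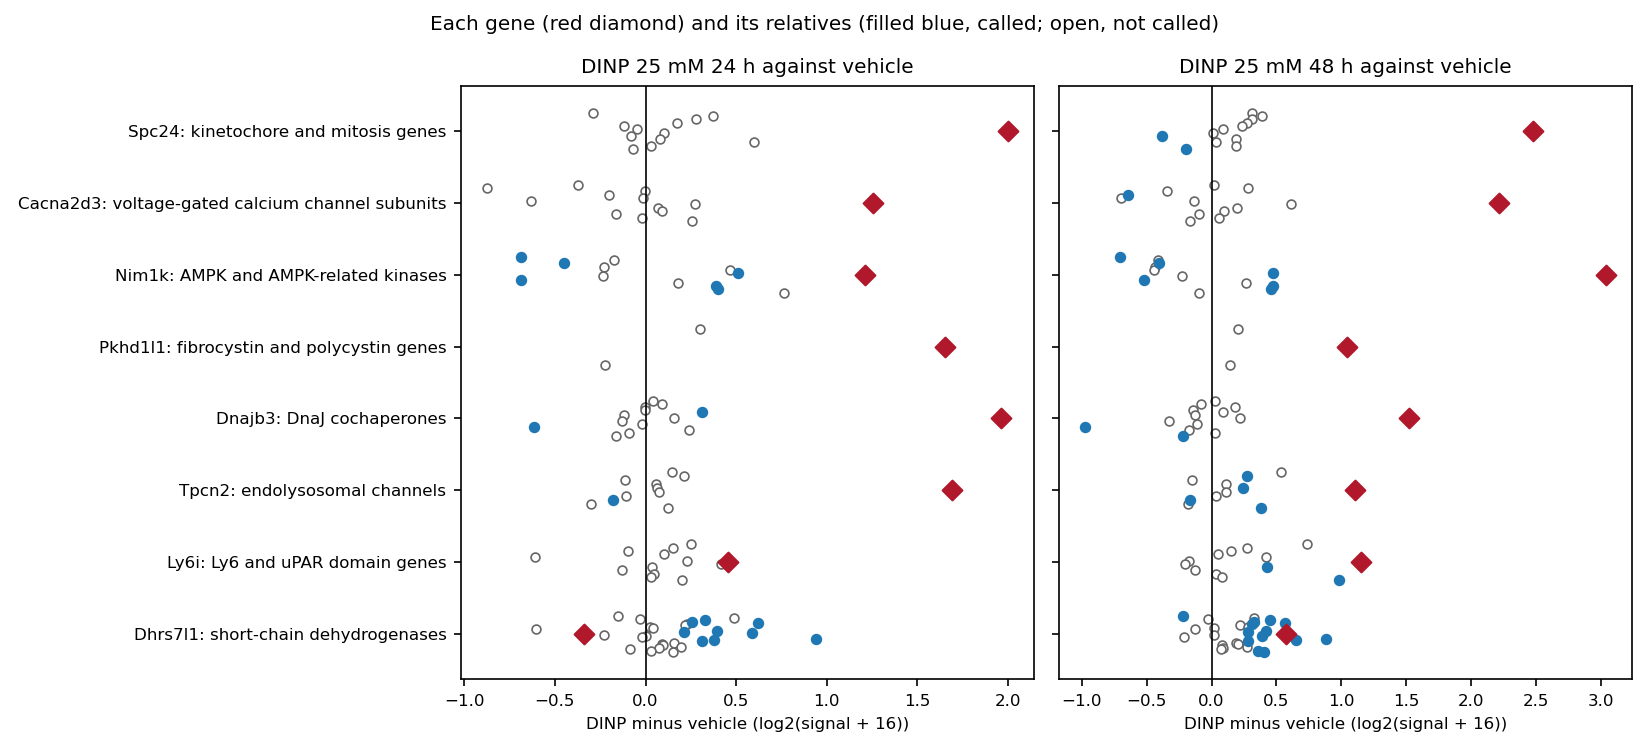
Difference between 25 mM DINP and vehicle at 24 h (left) and 48 h (right), on log2(signal + 16), for each of the 8 genes (red diamonds, not tested) and the tested genes of its relatives list (circles, filled where called by limma); the panels have separate scales. The diamonds of Spc24, Cacna2d3, Nim1k, Pkhd1l1, Dnajb3 and Tpcn2 lie to the right of every relative, that of Ly6i lies at their upper edge, and that of Dhrs7l1 lies among the lower relatives at 24 h. The 8 genes were picked for large rises in these contrasts and the relatives were not, so nothing is read from that order. The diamonds of Nim1k, Dnajb3, Tpcn2 and, at 24 h, Pkhd1l1 rest on vehicle means under the floor.

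Over the 8 lists, which hold 171 relatives with 139 on the array and 101 tested, 13 rose and 5 fell at 25 mM and 24 h, when 7.87% of all genes were called higher and 7.84% lower. At 100 mM and 24 h, 12 rose and 5 fell, beside 7.54% and 7.02% of all genes. At 25 mM and 48 h the counts were 21 and 10, beside 9.78% and 12.1%, and at 100 mM and 48 h they were 17 and 7, beside 8.69% and 9.2%. Most of the rises came from 1 list, the short-chain dehydrogenases, which held 28 of the 101 tested relatives. It gave 9 of the 13, 10 of the 12, 13 of the 21 and 11 of the 17 rises. Among 48 neighbours, 21 were tested: 6 rose and 1 fell, 7 and 2, 4 and 2, and 5 and 3, in the same order. The share of all genes called in either direction was 15.7%, 14.6%, 21.9% and 17.9%. Without vehicle replicate 5 of 48 h, the 8 neighbours called at 100 mM and 48 h became 5.

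The vehicle cultures themselves changed between 24 and 48 h, a comparison without DINP arrays, although those arrays also entered the choice of the genes. By limma's test, 4 of the 8 genes were called, where 14.4% of all tested probe sets were. With a constant of 1, and with each array centred on its median, 3 of the 8 were called. Since the vehicle arrays are one side of the contrasts the genes were picked on, nothing is read from these counts. The adjusted p-values of single genes carry the same limit and are given as a description. Nim1k, Dnajb3 and Tpcn2 also passed the filter only through their DINP arrays. Spc24 fell by 0.69 ± 0.11 (adjusted p = 7.58e-05), with no overlap between the times. Ly6i rose by 0.29 ± 0.08 (adjusted p = 0.0069), also with no overlap. Dhrs7l1 fell by 0.37 ± 0.12 (adjusted p = 0.0415), but the call ended without any 1 of 7 of the 10 arrays (0.0592 to 0.115), with no filter on dim probe sets (0.065), with quantile normalization (0.0541) and with no variance trend (0.0549). Nim1k passed the test at -1.60 ± 0.30 (adjusted p = 0.000332), yet both means lay under the floor, so no change is shown, and the call was lost when only the vehicle groups were fitted (0.0855). Cacna2d3 and Pkhd1l1 were not called, at -0.37 ± 0.17 (adjusted p = 0.143) and 0.52 ± 0.36 (0.389), with the 24 h mean of Pkhd1l1 under the floor. Dnajb3 at 0.38 ± 0.36 (0.556) and Tpcn2 at 0.44 ± 0.34 (0.454) were not called either. Both had vehicle means under the floor at both times, so for them neither a change nor a steady level is shown.

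The change over time in the distance from the vehicle is given here as values only, since the genes were picked on these contrasts. The difference at 48 h minus that at 24 h was 0.48 and 0.54 (each ± 0.16) for Spc24 at 25 and 100 mM. It was 0.96 and 0.45 (± 0.23) for Cacna2d3, 0.70 and 0.56 (± 0.11) for Ly6i, and 0.92 and 0.78 (± 0.18) for Dhrs7l1. The fitted values were 1.83 and 1.63 (± 0.42) for Nim1k, -0.61 and -0.53 (± 0.50) for Pkhd1l1, -0.43 and -0.67 (± 0.51) for Dnajb3, and -0.58 and -0.85 (± 0.48) for Tpcn2. These 4 had vehicle means under the floor, Pkhd1l1 at 24 h and the others at both times, so the size of their change over time is not measured. Against the floor, the bound for Nim1k went from 0.74 at 24 h to 0.98 at 48 h at 25 mM, and from 0.49 to 0.53 at 100 mM. For Dnajb3 it went from 0.83 to 0.78 and from 0.89 to 0.61, and for Tpcn2 from 0.80 to 0.64 and from 0.95 to 0.52. Being bounds set by the floor and given without their errors, these values do not show a course in time. For Spc24 the vehicle decline of 0.69 exceeds its gain, so its signal under DINP was no higher at 48 than at 24 h, whereas Ly6i and Dhrs7l1 read higher under DINP at 48 h.

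The genes whose log2 signal was most like that of each of the 8 over the 30 arrays are given as a description, with correlations over arrays that share the 6 groups. For Spc24 they were Adss1, the peroxisomal α-oxidation enzyme Hacl1 and the acyl-CoA dehydrogenase Acadvl (Pearson r = 0.98, 0.98 and 0.97). After the group means were removed, r was 0.67, 0.25 and 0.36. For Cacna2d3 they were the fatty acid binding protein Fabp1 (0.97), the lectin Asgr1 (0.95) and the carnitine-acylcarnitine carrier Slc25a20 (0.94). For Nim1k they were Acp3 (0.91), Spc24 itself (0.89) and Sult1c3 (0.88), and for Pkhd1l1 the peroxisomal genes Pex11a and Eci2 (0.79 each) and the clock-linked factor Hlf (0.78). For Dnajb3 they were the replication factor Mcm10 (0.86), the thioesterase Acot1 (0.84) and Tinagl1 (0.84), and for Tpcn2 Adss1 (0.82), the carnitine transporter Slc22a5 (0.81) and C8h11orf54 (0.80). For Ly6i they were the carboxylesterase Ces2c (0.97), Fxyd1 (0.96) and the aquaglyceroporin Aqp7 (0.96). For Dhrs7l1 they were the organic anion carrier Slco1b2 (0.80), the urea cycle enzyme Otc (0.70) and Enpp2 (0.70). With the group means removed, r was lower for these genes too. In the order above it was 0.72, 0.45 and 0.52 for Cacna2d3, and 0.30, 0.31 and 0.27 for Nim1k. For Pkhd1l1 it was 0.34, 0.39 and 0.435, and for Dnajb3 0.63, 0.36 and 0.635. For Tpcn2 it was 0.59, 0.43 and 0.53, and for Ly6i 0.39, 0.19 and 0.32. For Dhrs7l1 it was 0.51, 0.63 and 0.44. Among the 8 themselves, the 28 pairs had r from -0.09 to 0.91 with a median of 0.59. Within groups it ran from -0.38 to 0.37 with a median of -0.03.

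The cells carried hepatocyte transcripts: 13 of 14 listed markers were on the array, all 13 above the floor, with a median of 16.28. In these bulk samples, fewer cells of a type and less RNA per cell cannot be told apart. Of the other lists, the mean over all 30 arrays reached the floor for 4 of 6 Kupffer cell markers on the array. It did so for 5 of 8 markers of stellate cells and fibroblasts and 4 of 5 of sinusoidal endothelium. The same held for 2 of 5 of cholangiocytes and 2 of 4 of lymphocytes. Epcam was the brightest of these markers, at 13.42 in the vehicle. With 3 of the 5 cholangiocyte markers below the floor, that list's sum is mainly the signal of this 1 gene. The sum was 11941 to 14584 in the 48 h vehicle and 9060.4 to 11913 at 25 mM, without overlap. At 100 mM and 48 h it was 10672 to 12777, which overlapped the vehicle. The Kupffer sum was 2998 to 3579.7 in the 24 h vehicle and 2534 to 2843 at 100 mM. At 25 mM and 24 h it was 2649 to 3333, which overlapped the vehicle. At 48 h the Kupffer sum overlapped between groups, at 2027 to 2761 in the vehicle, 2615 to 2984 at 25 mM and 2259.8 to 3086 at 100 mM. The stellate and fibroblast sum was 3596 to 4282 in the 48 h vehicle and 3024 to 3541 at 100 mM. At 25 mM and 48 h it was 3390 to 3846, which overlapped the vehicle. The sum of the foreign-tissue genes moved as well. In the vehicle, at 25 mM and at 100 mM it was 9105 to 10791, 7452 to 9181 and 7832 to 9398 at 24 h. At 48 h it was 8630 to 10262, 9240 to 10191 and 7202 to 9239 in the same order. The part of these sums in the results was not tested.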

How the data were processed

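RNA of 30 wells (6 groups of 5) was labelled with biotin and hybridised to Affymetrix rat arrays. The authors deposited a linear signal intensity for each probe set on each array. The submitters' processing notes name MAS5, whose version is not given in the sources used here. A 2% trimmed mean of these intensities was 1499.98 to 1499.99 on every array, so the arrays had been scaled before deposit, and a change in total RNA per cell would not show. All columns of samples were used (0 were left out).

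The 57 control probe sets were dropped. Signals were taken as log2(signal + 16), a scale that understates the change of dim genes, and probe sets at or above the 40th percentile of the mean were tested (18625 of 31042). One limma fit of all 6 groups (limma 3.58.1, R 4.3.3, empirical Bayes with trend, 24 residual degrees of freedom) gave 2-sided tests with Benjamini-Hochberg adjustment over all tested probe sets at 0.05. "Called" means past that threshold, and "rose" and "fell" are written of called genes only. Errors written ± are its standard errors, 5 arrays against 5, so the number of arrays limits the precision. The fit was tested on simulated data. Replicate numbers follow sample order.

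Symbols come from the platform annotation, updated through the Entrez ID with the RefSeq gene table of GRCr8, which also gave the gene order: 20826 probe sets had 1 symbol, 436 several and 9780 were unnamed here. Where a gene had several tested probe sets, the brightest stood for it. The 8 genes, the lists and the tests were chosen with earlier results of these data known. The text names the 8 genes, from each relatives list up to 3 called genes with the largest difference in any comparison, every called neighbour (the 3 nearest protein-coding genes on each side), and the 3 genes best correlated with each of the 8. Nuf2, Spc25, Smarca4, Zfp131, Ly6e, Ly6c, P2rx4, Sik2, Sik3, Nuak2, Mark3 and Dhrs1 were added to these after their values were seen. Alternatives were other constants (1 and 64), no filter, quantile normalization, median centring, no variance trend, fewer groups in the fit, array rounds as a block, and each array left out.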

Additional observations from a re-analysis of the deposited data

Results flagged for a closer look

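In 3 of 48 groups of 5 arrays, 1 array lay far from the other 4 by Dixon's criterion, which chance meets in about 1 in 20 groups. Cacna2d3 read 9.107 (log2) in replicate 5 of 25 mM at 24 h, where the other 4 arrays lay between 9.93 and 10.10. Nim1k read 7.889 in replicate 4 of 100 mM at 48 h, where the others lay between 8.61 and 8.71. Dhrs7l1 read 9.933 in replicate 3 of 100 mM at 24 h, where the others lay between 10.60 and 10.70.

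Dhrs7l1 was also marked because its difference from the vehicle at 100 mM was -0.3188 at 24 h and 0.4591 at 48 h, with every DINP array below the vehicle mean at the first time and above it at the second. This difference between the times was not tested.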

How the results depend on the processing

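Counts of called relatives, called neighbours and genes apart from the vehicle stayed within 1.5 times under the alternatives run, except for the neighbours called at 100 mM and 48 h, which ranged from 5 to 8 when 1 array was left out (5 without vehicle replicate 5 of 48 h). No direction that had been called was reversed. The genes above the vehicle on every array numbered 6 to 7, 6 to 7, 6 to 7 and 7 to 8 with 1 array left out. The labels carry no replicate numbers. With the rounds of array numbers as a replicate block, 4 of the 8 genes were called in the vehicle over time, and 19, 18, 31 and 24 relatives were called against the vehicle (18, 17, 31 and 24 without the block). The block changed no count by more than 1.5 times. Signals near the floor of 232.3 limit what Nim1k, Dnajb3 and Tpcn2 can show, and their differences depend on the constant added. Each of the 8 genes has 1 probe set, so taking any other could not be tried.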
